A study of Mus musculus with 6 samples.

Results

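Interferon-stimulated genes (ISGs) are genes whose transcription rises when a cell senses interferon, and 34 of them were followed here in subcutaneous white adipose tissue (scWAT) of mice. They were listed by gene symbol, with no measured value in the rule, but earlier results of these data were known when the list was chosen. All 34 were found among the 55401 genes of the count tables. Total RNA was sequenced from scWAT of 3 male mice of genotype *Yapfl/fl;Tazfl/fl* without Cre recombinase (YT-FF, called wild type in the sample labels) and of 3 male mice that also carried *AdipoqCre* (YT-AKO), all 8 weeks old and on normal chow. Both groups therefore carried floxed alleles of *Yap* and *Taz*, the genes of a pair of transcriptional coactivators of the Hippo pathway. Cre under the *Adipoq* promoter acts in mature adipocytes, so the immune, vascular and stromal cells of the tissue keep both genes in the YT-AKO mice. Each group was represented by 3 libraries from a constitutive deletion at a single age. The comparison of the groups asks which of these genes differed in the tissue after the deletion in adipocytes.

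Interferons are secreted proteins that signal through cell surface receptors and the JAK kinases to STAT transcription factors. Type I interferons assemble a complex that includes STAT2 and IRF9 and binds the interferon-stimulated response element (ISRE), whereas interferon-γ acts at the interferon-γ activated site (GAS). The genes they switch on encode sensors of foreign nucleic acid, transcription factors that widen the response, and effectors that block steps of viral replication. Most cell types of adipose tissue, adipocytes and macrophages included, keep a basal level of these transcripts.

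The 6 libraries held 17740987 to 21838493 counted fragments, and every one of the 34 ISGs passed the filter on low counts, with 46 to 27046 fragments per library. Counts were compared with the quasi-likelihood test of edgeR after TMM normalization, which scales each library by a trimmed mean of its gene ratios, with Benjamini-Hochberg adjustment over the 16807 genes tested. Levels are given in TMM-normalized CPM, a gene's share of the counts of its library, or, where genes of different length are set side by side, in TPM, the share after division by exon length. Of the targeted genes, *Yap1* was lower in the libraries labelled YT-AKO (log2 fold change -0.98, with an adjusted p of 0.0179 by the quasi-likelihood test of edgeR), whereas *Wwtr1*, which encodes TAZ, was higher in them (0.89, adjusted p = 0.0220). At the protein level, the paper reported by immunoblot that both YAP and TAZ were clearly reduced in YT-AKO scWAT. The RNA counts of *Wwtr1* did not show such a decrease. Counts over whole genes do not show the loss of single exons. The summed level of 6 adipocyte markers was 11101 to 13081 CPM in YT-FF and 26532 to 57733 CPM in the libraries labelled YT-AKO, with none of these markers at 0. Most of that gap was *Cfd*, at 5341 to 5902 and 18705 to 48819 CPM, and the other 5 markers summed to 5730 to 7740 and 7827 to 10074 CPM, with *Lipe* called higher and *Adipoq*, *Plin1*, *Cidec* and *Lep* not called. Fewer cells of a type and less RNA per cell cannot be told apart in such tissue libraries.

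The element through which these genes answer to type I interferon can be read in their promoters. RefSeq promoter windows (assembly GRCm38.p6, from 250 bases before to 50 bases after a gene's start) were at hand for 25 of the 34 ISGs. The ISRE was searched on both strands as GAAA, any 2 bases and GAAA, and 15 of the 25 genes (60%) held a match, beside 3.99% of the 27025 genes in the promoter table. The 150 bases before the start are shown for *Gbp7*, *Bst2* and *Isg15*, which have the lowest adjusted p-values in the comparison of the groups among the genes with a match in this stretch, with every match in capitals. Each is written 5′ to 3′ on the strand of its gene. *Gbp7* lies at chr3:142530186-142530335 on the plus strand, *Bst2* at chr8:71537473-71537622 on the minus strand and *Isg15* at chr4:156200819-156200968 on the minus strand.
Gbp7: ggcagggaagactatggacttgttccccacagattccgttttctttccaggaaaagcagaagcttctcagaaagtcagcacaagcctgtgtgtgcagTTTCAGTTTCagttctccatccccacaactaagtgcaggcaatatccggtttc
Bst2: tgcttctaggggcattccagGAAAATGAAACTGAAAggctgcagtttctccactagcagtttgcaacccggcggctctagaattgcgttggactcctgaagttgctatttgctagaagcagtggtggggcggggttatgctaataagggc
Isg15: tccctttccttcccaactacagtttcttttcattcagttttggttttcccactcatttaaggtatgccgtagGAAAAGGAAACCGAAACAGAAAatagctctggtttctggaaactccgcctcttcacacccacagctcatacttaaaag

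The match in *Gbp7* reads on the opposite strand of the gene and begins at position -53 from the start. In *Bst2* a pair of overlapping matches covers 16 bases from position -130, and in *Isg15* 3 overlapping matches cover 22 bases from position -78. *Ddx58*, whose adjusted p lies between those of *Bst2* and *Isg15*, has its match 3 bases after the start. Across the 15 genes there were 23 matches, 21 of them before the start, between positions -222 and -14, and 7 genes had more than 1. The GAS, searched as TTCNNNGAA, was found in 7 of the 25 genes (28%) and in 9.55% of all genes of the table, and 4 genes held both motifs. A shorter form of the ISRE, with GAA in place of the second GAAA, which every full match contains, was present in 16 of the 25 genes (64%), against 9.76% of the table. No window was matched for *Dhx58*, *Zbp1*, *Usp18*, *Oas2*, *Mx1*, *Mx2*, *Rtp4*, *Parp14* and *Ifi27*.

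The ISGs did not move together between the groups. *Ifi27*, *Bst2* and *Ifi35* rose in the libraries labelled YT-AKO, *Gbp7*, *Ddx58* and *Ifit2* fell, and the other 28 did not pass an adjusted p of 0.05. The 3 higher genes are 8.82% of the list, where 12.6% of all tested genes were called higher, and the 3 lower genes are likewise 8.82%, where 9.01% of all tested genes were called lower. In either direction 6 of 34 ISGs were called (17.6%), below the 21.6% of the whole table. The log2 fold changes ran from -0.84 to 1.72 with a median of -0.13, and the median over all tested genes was -0.02. There were 14 genes above 0 and 20 below it, and 22 lay within 0.5 of 0.

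**Figure D1:**
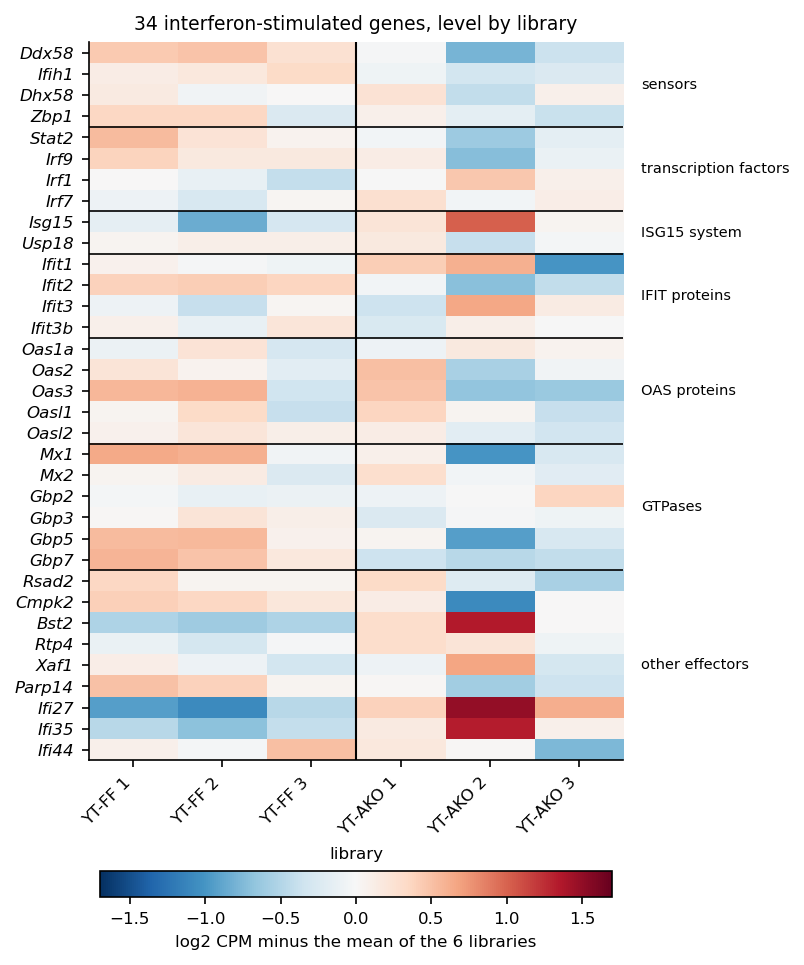
Level of each of the 34 ISGs (rows, grouped by role) in each of the 6 libraries (columns), as log2 CPM minus the mean of that gene over the 6 libraries, from blue (below the mean) to red (above it). *Ifi27* is red in the 3 libraries labelled YT-AKO, deepest in YT-AKO 2. *Bst2* and *Ifi35* are deep red in YT-AKO 2 and pale, near the mean, in YT-AKO 1 and YT-AKO 3. Most sensors and GTPases are pale or blue in the libraries labelled YT-AKO.

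Library by library, all 3 libraries labelled YT-AKO lay above all 3 YT-FF libraries in CPM for 4 of the 34 ISGs (11.8%, against 25.7% of all tested genes) and below them for 10 (29.4%, against 25.8%), while the groups overlapped for 20. The 4 were *Ifi27*, *Bst2*, *Ifi35* and *Isg15*. The 10 were *Ddx58*, *Ifih1*, *Stat2*, *Irf9*, *Ifit2*, *Gbp3*, *Gbp5*, *Gbp7*, *Cmpk2* and *Parp14*. YT-AKO 2 was the lowest of the 6 libraries for 14 ISGs and the highest for 8. A second tool, DESeq2, called the same 6 genes and added *Isg15* as higher and *Gbp5* and *Parp14* as lower, which makes 4 higher, where it called 16.2% of all genes higher, and 5 lower, where it called 12.6% lower. At an adjusted p under 0.01 with a log2 fold change beyond 1, edgeR called 0 of the ISGs and 0.125% of all genes, with 12 ISGs at an unadjusted p under 0.05 (35.3%, against 40.8% of all genes), and DESeq2 called 3 ISGs and 11.4% of all genes. The calls depended on the control libraries, since without YT-FF 1 or without YT-FF 2, edgeR called 0 ISGs and 0 to 2 genes in all. In these fits 7 and 6 of the 34 ISGs had an unadjusted p under 0.05, beside 4665 of 17183 and 4507 of 17140 genes tested. Without YT-FF 3 the calls were *Ifi27* and *Gbp7*, without YT-AKO 3 *Ifi27*, *Bst2*, *Ifi35* and *Gbp7*, and without YT-AKO 1 *Gbp5* and *Parp14* joined the first 6.

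All 4 sensors of viral nucleic acid had a log2 fold change below 0, and 1 passed the test. *Ddx58* (ENSMUSG00000040296, chromosome 4, 40203773 to 40239828, minus strand), which encodes the RNA helicase RIG-I, had 75.5, 77.4 and 66.2 CPM in YT-FF 1 to 3 and 54.4, 31.9 and 43.1 CPM in the libraries labelled YT-AKO 1 to 3. Every YT-FF library lay above every library labelled YT-AKO. The log2 fold change was -0.76 (standard error, SE, 0.212, adjusted p = 0.0416, edgeR quasi-likelihood test), a level 1.69-fold higher in YT-FF. *Ifih1*, which encodes the related long-RNA sensor MDA5, had 29.4 to 33.9 CPM in YT-FF and 21.8 to 25.8 CPM in the other group, without overlap, and did not pass the test (-0.42, adjusted p = 0.0844). For *Dhx58*, the gene of the regulatory helicase LGP2, the groups overlapped at 14.0 to 16.2 and 10.97 to 17.4 CPM. *Zbp1*, which encodes a sensor of Z-form nucleic acid, also overlapped, at 22.2 to 33.8 and 20.3 to 28.1 CPM. The log2 fold changes of *Dhx58* and *Zbp1* were -0.03 and -0.32, and that of *Dhx58* was 0.14 without YT-AKO 2.

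None of the 4 transcription factors was called. *Stat2* and *Irf9*, which encode parts of the ISRE-binding complex, had values in the libraries labelled YT-AKO that all lay below those of YT-FF. *Stat2* had 85.7, 68.9 and 61.2 CPM in YT-FF and 57.2, 38.5 and 52.4 CPM in the other group (log2 fold change -0.54, adjusted p = 0.0896, edgeR), and *Irf9* had 67.5 to 78.7 and 36.6 to 65.9 CPM (-0.44, adjusted p = 0.183). *Irf7*, the factor that amplifies the type I response and is itself among the most responsive ISGs, had 56.9, 50.01 and 62.0 CPM in YT-FF and 72.9, 58.9 and 65.7 CPM in the libraries labelled YT-AKO. Its groups overlapped (0.23, adjusted p = 0.313). *Irf1*, the main factor downstream of interferon-γ, likewise overlapped, with 70.5 to 94.1 and 93.1 to 128 CPM (0.36, adjusted p = 0.188), and 20.02% of its exon bases overlap *Gm17334*, where fragments were not counted.

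*Isg15* (ENSMUSG00000035692, chromosome 4, 156199455 to 156200796, minus strand) encodes a ubiquitin-like protein that is joined to other proteins in the antiviral response. It had 9.63, 5.93 and 8.75 CPM in YT-FF and 12.4, 21.6 and 11.1 CPM in the libraries labelled YT-AKO. The groups did not overlap, and YT-AKO 2 held the highest value. The difference of 0.89 on the log2 scale (SE 0.318) missed the threshold in edgeR (adjusted p = 0.0760) and passed it in DESeq2 (adjusted p = 0.0431), and it was 0.53 without YT-AKO 2. *Usp18*, which encodes the protease that removes ISG15 from proteins and dampens signaling at the type I receptor, overlapped between the groups at 17.0 to 17.6 and 12.6 to 18.5 CPM (-0.15, adjusted p = 0.590, edgeR).

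The IFIT proteins bind viral RNA and curb its translation, and 1 of the 4 genes measured was called. *Ifit2* (ENSMUSG00000045932, chromosome 19, 34550694 to 34576419, plus strand) had 21.0, 21.3 and 20.5 CPM in YT-FF, a narrow spread, and 15.4, 9.79 and 12.0 CPM in the libraries labelled YT-AKO. All 3 of the latter were lower, with a log2 fold change of -0.76 (SE 0.207, adjusted p = 0.0398, edgeR quasi-likelihood test). *Ifit1*, of the same gene cluster, did not follow. It had 15.1, 14.2 and 13.7 CPM in YT-FF and 19.2, 21.9 and 7.15 CPM in the other group, so that YT-AKO 3 held the lowest value of all 6 libraries and the other two lay above YT-FF. *Ifit3* (28.6 to 38.1 and 29.4 to 59.0 CPM) and *Ifit3b* (9.36 to 11.8 and 8.55 to 10.97 CPM) overlapped as well. The latter are uncertain, since 51.2% of the 50-base stretches of *Ifit3* also occur in *Ifit3b* and fragments that fit several places were left out by the authors.

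The OAS family makes short adenylate chains that activate RNase L, and its OASL relatives act on RNA sensing. None of the 5 genes passed the test, and the groups overlapped for every one. *Oas1a* had 7.72 to 11.03 and 8.84 to 10.5 CPM, and 57.6% of its 50-base stretches also occur in *Oas1g*. *Oas2* had 17.3 to 22.8 and 13.4 to 27.9 CPM, with both the lowest and the highest value in the libraries labelled YT-AKO. The largest difference of the family was that of *Oas3*, at -0.50 on the log2 scale with an SE of 0.398. *Oasl1* (4.84 to 7.95 and 4.85 to 8.14 CPM) and *Oasl2* (20.3 to 22.2 and 15.4 to 21.0 CPM) completed the family.

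Among the interferon-induced GTPases, *Gbp7* was called and lower. *Gbp7* (ENSMUSG00000040253, chromosome 3, 142530342 to 142550149, plus strand), a guanylate-binding protein of host defence against intracellular pathogens, had 65.3, 61.3 and 49.2 CPM in YT-FF and 34.4, 31.4 and 32.6 CPM in the libraries labelled YT-AKO. The 3 lower values were close together (SD 1.499 CPM) and well under the lowest YT-FF value. The log2 fold change of -0.84 (SE 0.161) had an adjusted p of 0.0203 by the same edgeR test, the smallest of the 34 ISGs, and 11.3% of the exon bases overlap *Gm43802*. *Gbp5* had 42.5, 43.0 and 30.8 CPM in YT-FF and 30.2, 15.3 and 24.2 CPM in the other group, where 30.8 and 30.2 nearly touch (-0.74, adjusted p = 0.0795 in edgeR and 0.0440 in DESeq2). *Gbp3* showed a smaller difference without overlap (50.04 to 57.1 and 41.4 to 48.5 CPM, -0.23), and *Gbp2*, the most abundant of the GBP genes measured, had 86.2 to 91.6 and 88.5 to 121 CPM (0.19). The Mx genes encode dynamin-like GTPases that trap viral components, and *Mx1* had 23.0, 22.5 and 14.2 CPM in YT-FF and 15.6, 7.37 and 12.2 CPM in the libraries labelled YT-AKO. Its groups overlapped, and a log2 fold change of -0.76 with an SE of 0.315 did not pass the test (adjusted p = 0.110, edgeR), while *Mx2* stood at 0.04.

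The 3 genes called higher were all among the remaining effectors. *Ifi27* (ENSMUSG00000064215, chromosome 12, 103434211 to 103440239, plus strand), which encodes a small hydrophobic interferon-induced membrane protein, had 296, 267 and 409 CPM in YT-FF and 742, 1595 and 867 CPM in the libraries labelled YT-AKO. Each of the latter exceeded the highest YT-FF value. Its level was 3.30-fold higher (log2 fold change 1.72, SE 0.333, adjusted p = 0.0204, edgeR quasi-likelihood test). *Bst2* (ENSMUSG00000046718, chromosome 8, 71534255 to 71537456, minus strand), the gene of tetherin, which holds budding virions at the cell surface, had 64.4, 60.9 and 64.6 CPM in YT-FF and 114, 237 and 93.7 CPM in the other group. The YT-FF libraries were nearly equal, and YT-AKO 2 stood far above the rest. The fold was 2.34 (log2 fold change 1.23, SE 0.333, adjusted p = 0.0389, edgeR). *Ifi35* (ENSMUSG00000010358, chromosome 11, 101448407 to 101458698, plus strand), whose protein pairs with NMI, followed the same order of libraries, with 37.0, 31.7 and 38.8 CPM in YT-FF and 57.3, 130 and 54.7 CPM in the libraries labelled YT-AKO. Again YT-AKO 2 was the highest, with a 2.25-fold difference between the groups (1.17, SE 0.338, adjusted p = 0.0452, edgeR). Without YT-AKO 2 the log2 fold changes were 1.31 for *Ifi27*, 0.71 for *Bst2* and 0.64 for *Ifi35*, and all 3 genes were still called. For *Ifi35*, 16.8% of the exon bases overlap *Gm11626*, where fragments were not counted.

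**Figure D2:**
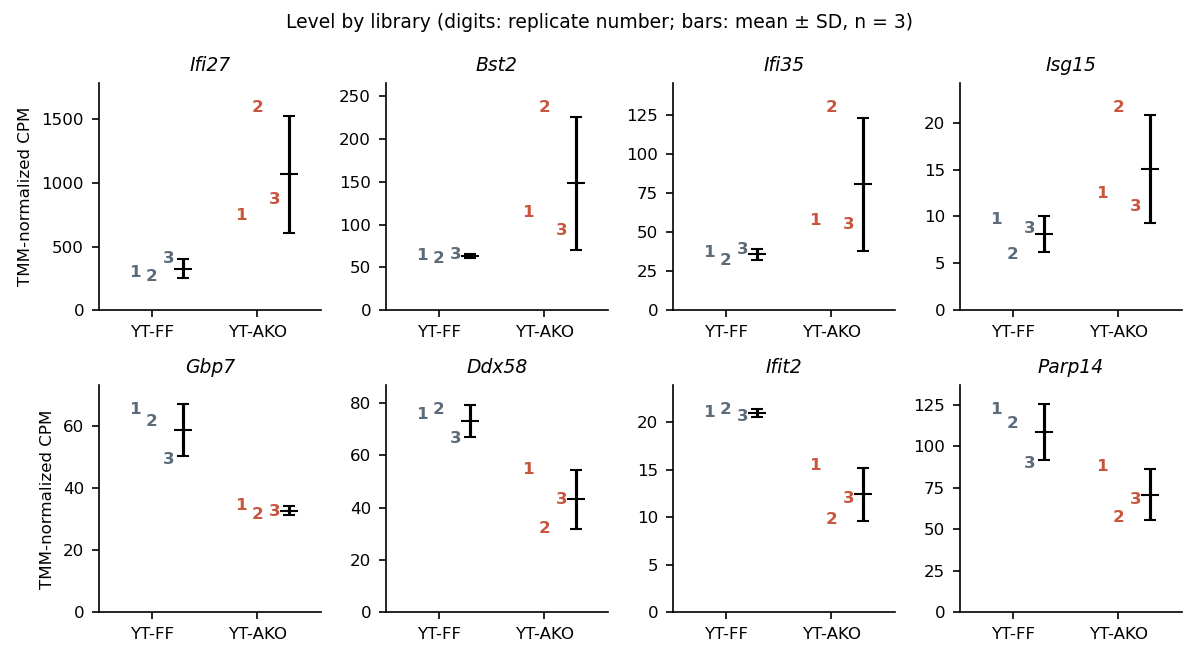
TMM-normalized CPM (vertical axes, from 0) of 8 ISGs in the 3 YT-FF and the 3 libraries labelled YT-AKO, with the digit of each point giving the replicate number and the bar the mean ± SD (n = 3). In the upper row the libraries labelled YT-AKO lie above YT-FF and YT-AKO 2 is highest, as for *Bst2* with 237 CPM against 60.9 to 64.6 CPM in YT-FF, and in the lower row they lie below YT-FF.

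The other effectors did not pass the test. *Parp14*, which encodes an ADP-ribosyltransferase, had 122, 113 and 89.5 CPM in YT-FF and 87.5, 57.3 and 67.7 CPM in the libraries labelled YT-AKO. The groups were separate by a narrow gap, at a log2 fold change of -0.61 (adjusted p = 0.0670 in edgeR and 0.0400 in DESeq2). *Cmpk2*, the gene of a mitochondrial nucleotide kinase, was also separate at 17.0 to 19.7 and 7.02 to 16.2 CPM (-0.54, adjusted p = 0.217, edgeR), whereas its neighbour *Rsad2*, which encodes the antiviral enzyme viperin, overlapped at 12.0 to 14.96 and 7.98 to 14.6 CPM. *Rtp4* (17.4 to 21.2 and 20.4 to 26.5 CPM), *Xaf1* (21.9 to 29.3 and 22.1 to 43.3 CPM) and *Ifi44* (4.48 to 6.54 and 2.72 to 5.23 CPM) overlapped too.

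The order of the ISGs by level is given in TPM, which divides by exon length. In YT-FF *Ifi27* stood at 833 ± 151 TPM (SD, n = 3), *Bst2* at 266 ± 8.00 and *Gbp2* at 134 ± 7.06, and these were the 3 ISGs above 100 TPM. A further 27 lay between 10 and 100 TPM, and *Oasl1*, *Mx2*, *Oas3* and *Ifi44* lay below 10 TPM, with *Ifi44* the lowest at 3.27 ± 0.510 TPM. *Ifi27* and *Bst2* also led in the libraries labelled YT-AKO, at 1641 ± 249 and 365 ± 89.7 TPM, and *Ifi35* there, at 104 ± 24.9 TPM, was level with *Gbp2* at 97.9 ± 32.6 TPM within their spread. On this scale 30 of the 34 ISGs (88.2%) had a lower mean in the libraries labelled YT-AKO, as did 79.3% of all tested genes, and the exceptions were *Ifi27*, *Bst2*, *Ifi35* and *Isg15*. The median log2 ratio of mean TPM was -0.77 for the ISGs and -0.66 for all tested genes, a shift of the whole table that the ISGs shared. A like shift appeared when the libraries were scaled by their totals alone, where the median log2 fold change of all tested genes moved from -0.02 to -0.34 and that of the ISGs to -0.45, with 5 above 0.

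The direction of an ISG went with the length of its exons. The genes called higher have 903 to 1727 bp of exons, and those called lower have 3927 to 7050 bp. Of the 7 ISGs with at most 2000 bp, 6 had a log2 fold change above 0, the exception being *Ifit3b*. Of the 14 with over 4000 bp, 13 were below 0, the exception being *Xaf1*, and of the 7 with over 6000 bp all were below 0. Across the 34 genes, which share the same libraries, exon length and log2 fold change were related with a Spearman's rho of -0.75 and a Pearson's r of -0.79, and across all 16807 tested genes they were -0.376 and -0.264.

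**Figure D3:**
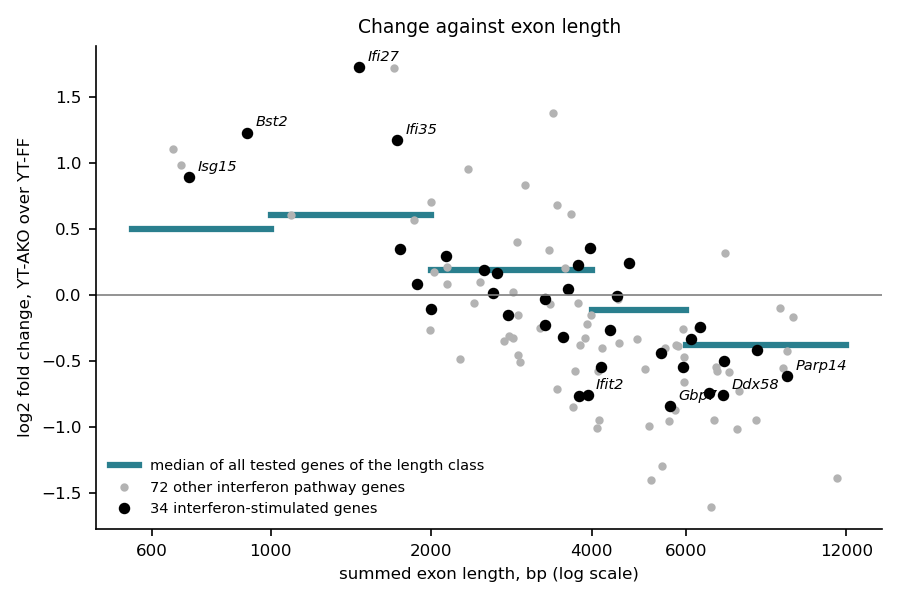
Log2 fold change of the libraries labelled YT-AKO over YT-FF (vertical axis) against summed exon length in bp (horizontal axis, log scale) for the 34 ISGs (black) and 72 other interferon pathway genes (grey), with the median of all tested genes of each length class (bars, drawn across the class). The bars step down from 0.60 between 1000 and 2000 bp to -0.38 over 6000 bp, and the ISGs fall from the upper left to the lower right around them.

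The whole table showed the same slope, and the ISGs were read against it by length class. Among all tested genes between 1000 and 2000 bp the median log2 fold change was 0.60, with 26.4% called higher and 2.19% lower, and the 5 ISGs of that class had a median of 0.35. Among genes over 6000 bp the median was -0.38, with 3.25% called higher and 20.7% lower, and the median of the 7 ISGs was -0.50. In between, the 13 ISGs between 2000 and 4000 bp had a median of 0.01 (0.19 in all genes) and the 7 between 4000 and 6000 bp one of -0.44 (-0.12 in all genes). The pair of ISGs of at most 1000 bp, *Isg15* and *Bst2*, had a median of 1.06, where all genes of that class had 0.50. Above 1000 bp, the medians of the ISGs were thus below those of all genes of their class, by amounts that were not tested.

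When a smooth term of exon length was fitted in each library and taken out as an offset, *Ifi27* was still higher (log2 fold change 1.30, adjusted p = 0.0265, edgeR quasi-likelihood test), and *Gbp7* (-0.65, adjusted p = 0.0341) and *Ifit2* (-0.72, adjusted p = 0.0430) were still lower. In that fit 10.1% of all tested genes were called higher and 4.54% lower. An unadjusted p under 0.05 was reached by 7 of the 34 ISGs and by 5976 of all 16807 genes (35.6%). The calls of *Bst2* (0.76, adjusted p = 0.0728), *Ifi35* (0.78, adjusted p = 0.0891) and *Ddx58* (-0.49, adjusted p = 0.0764) were lost with edgeR, and their directions were kept. Only 10 of the ISGs then lay above 0 and 24 below it, and Spearman's rho with length over the 34 genes was -0.41. *Mx1*, at 3785 bp in the middle of the length range, kept the same log2 fold change of -0.76, and *Irf1* and *Irf7* stayed above 0 at 0.41 and 0.24. With the length offset and without YT-AKO 2, an alternative chosen after the data were seen, *Ifi27*, *Bst2* and *Ifi35* were called higher and *Gbp7* and *Ifit2* lower. That alternative called 2609 of all 17350 genes higher and 1469 lower.

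**Figure D4:**
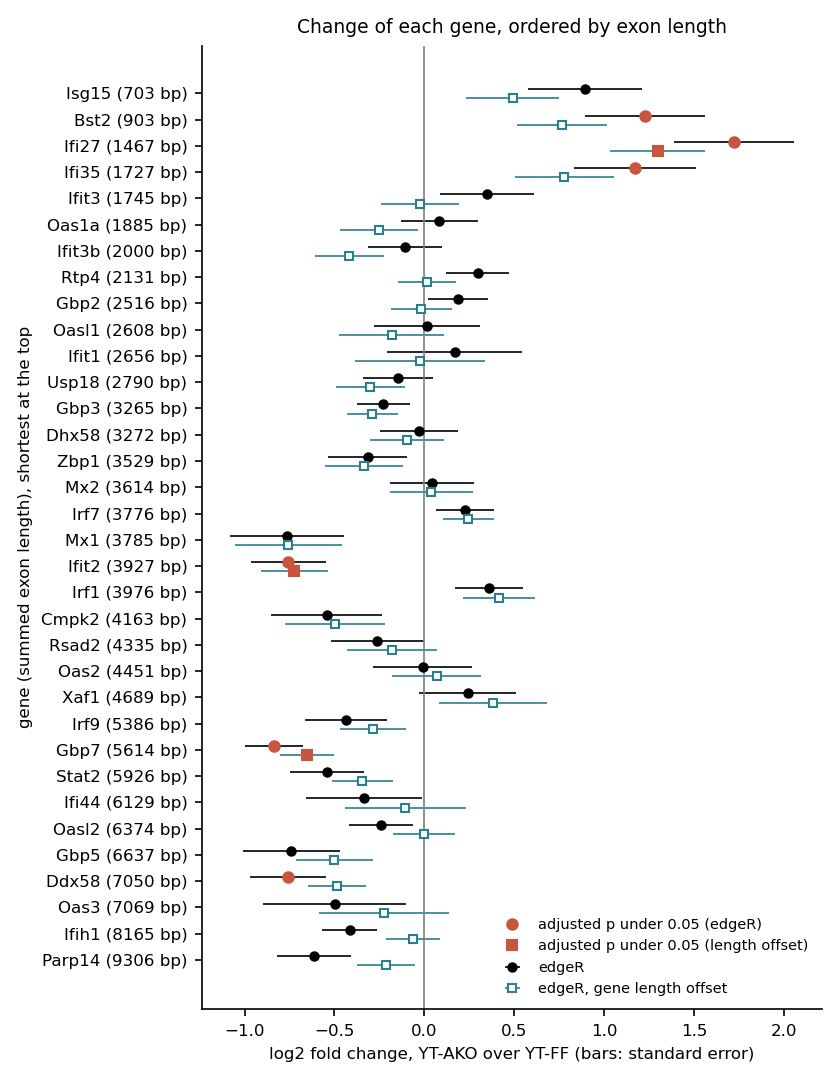
Log2 fold change of the libraries labelled YT-AKO over YT-FF with its standard error for each of the 34 ISGs, ordered by summed exon length from 703 bp at the top to 9306 bp at the bottom, in the edgeR fit (circles) and in the fit with a gene length offset (squares), with genes at an adjusted p under 0.05 filled in red. The offset draws short genes to the left and long genes to the right, and *Ifi27*, *Gbp7* and *Ifit2* stay red in both fits.

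The promoter motif did not sort the genes by direction. The 15 ISGs with an ISRE match had a median log2 fold change of -0.23 (range -0.84 to 1.23), with *Bst2* called higher and *Gbp7* and *Ddx58* lower. The 10 ISGs with a window but no match had a median of -0.11 (range -0.76 to 1.17), with *Ifi35* called higher and *Ifit2* lower. The sequences printed for *Bst2*, *Isg15* and *Gbp7* thus belong to genes with opposite signs, and so do genes without the motif. A missing match says only that these letters were not in the window.

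The rest of the pathway was read from 84 further genes, and 72 of them had counts enough to be tested. All 10 interferon ligands listed, type I, II and III, were below the filter on low counts. Only *Ifng*, *Ifna2* and *Ifnk* had any fragment, 33 in all over the 6 libraries and at most 10 of one gene in a library. Expression of these ligands was thus at or near the limit of detection in both groups. Of 6 receptor subunits and 5 kinases and signal transducers none was called. *Ifnar2*, a chain of the type I receptor, had 63.7 to 65.8 CPM in YT-FF and 73.8 to 90.8 CPM in the libraries labelled YT-AKO without overlap (log2 fold change 0.34, adjusted p = 0.116, edgeR), and its partner *Ifnar1* overlapped (-0.25). The receptor kinases *Jak1*, *Jak2* and *Tyk2* stood at -0.58, -0.56 and -0.58 with adjusted p-values of 0.0576, 0.0721 and 0.105 (edgeR).

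Of the 4 negative regulators 1 was called, *Pias1*, an inhibitor of cytokine signaling, which was lower (-0.54, adjusted p = 0.0366, edgeR quasi-likelihood test). Among 10 genes of sensing and its adaptors, *Ticam1*, the adaptor of Toll-like receptor 3, was higher (0.84, adjusted p = 0.0372), and *Cgas*, the sensor of cytosolic DNA, was lower (-0.94, adjusted p = 0.0376). Among 50 further ISGs, 48 of them tested, 3 were higher and 13 lower. The 3 were *Ifitm2* (1.10) and *Ifitm3* (0.98), which restrict viral entry, and *Psmb10* (1.72), an immunoproteasome subunit with 127, 459 and 143 CPM in the libraries labelled YT-AKO and 63.5 to 82.5 CPM in YT-FF. *Ifitm2* and *Ifitm3*, like *Ifi27*, were also called with the length offset, and *Psmb10* was not (adjusted p = 0.0688).

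The 13 lower genes of that list included more of the guanylate-binding proteins, *Gbp4* (-1.01) and *Gbp9* (-1.40), and the immunity-related GTPase *Irgm2* (-0.84). They also included *Eif2ak2* (-0.99), which encodes the kinase PKR, *Adar* (-0.95), an RNA-editing enzyme, *Samd9l* (-1.29), *Helz2* (-1.38), *Pml* (-0.95), *Sp100* (-0.72), *Sp110* (-0.94), *Dtx3l* (-0.87), *Slfn8* (-1.0035) and *Ifi203* (-1.60). Over all 72 genes tested, 4 were called higher (5.56%, against 12.6% of all tested genes) and 15 lower (20.8%, against 9.01%), with a median log2 fold change of -0.33. The 4 higher genes have 655 to 2992 bp of exons, and the 15 lower ones 3690 to 11529 bp, 14 of them over 4000 bp. With the length offset the counts were 2 higher and 11 lower, *Gbp4*, *Gbp9*, *Adar* and *Eif2ak2* among the latter, and the median was -0.26. That fit called 10.1% of all tested genes higher and 4.54% lower. None of the 15 was called without YT-FF 1 or without YT-FF 2.

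Markers of cell types that can carry ISGs were read beside these values. The summed level of 10 macrophage markers, none of them at 0, was 1297 to 1483 CPM in YT-FF and 2006 to 2769 CPM in the libraries labelled YT-AKO, with 4 called higher, *Fcgr1*, itself inducible by interferon-γ, and the complement genes *C1qa*, *C1qb* and *C1qc*. The sums of the 4 markers of plasmacytoid dendritic cells, the chief source of type I interferon, overlapped. They were 46.3 to 66.3 CPM in YT-FF and 33.3 to 49.0 CPM in the other group. *Ccr9* was called lower, but not with the length offset (adjusted p = 0.0899, edgeR), and *Klk1* stood at 0.59 and was not called. The 4 markers of dendritic cells summed to 74.3 to 84.1 and 56.3 to 62.8 CPM. *Flt3* was called lower, but not with the length offset (adjusted p = 0.123, edgeR). The sums of 6 T cell markers overlapped at 307 to 461 and 268 to 730 CPM. Of these, *Cd4* was called lower (log2 fold change -0.89), and *Cd3d* stood at 1.20 and was not called. The value of *Cd3d* rested on YT-AKO 2, with 165 CPM, whereas YT-AKO 1 and YT-AKO 3 had 33.2 and 32.2 CPM and YT-FF 31.5 to 35.8 CPM. Those of natural killer cells overlapped as well (14.98 to 24.2 and 14.8 to 16.7 CPM). The 4 brown and beige fat markers summed to 156 to 219 CPM in YT-FF and 1543 to 3418 CPM in the libraries labelled YT-AKO, with 3 of them called higher. As for *Ifi27*, *Bst2* and *Ifi35*, the highest sums of the macrophage, T cell and beige markers and the highest level of *Cfd* were those of YT-AKO 2, whereas the other 5 adipocyte markers had their highest sum in YT-AKO 3. The part of these cell types in the levels of the ISGs was not tested.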

How the data were processed

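The 6 scWAT count tables were grouped by the genotype named in the sample labels, where WT is the YT-FF group. The authors aligned the read pairs to mm10 (HISAT2) and used featureCounts 2.0.1 to count them over GENCODE M25 exons, per the labels, the methods and the file headers. The deposited values are raw counts, unstranded, with multi-mapping and multi-overlapping fragments left out. Exon lengths are those of the deposited tables. Identifiers were matched to symbols in 55141 of 55401 genes.

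In R 4.3.3, edgeR 4.0.16 was run with TMM, filterByExpr (minimum count 10, minimum total 15) and the quasi-likelihood test, p-values were adjusted after Benjamini-Hochberg over 16807 genes, and a gene was called at an adjusted p under 0.05. DESeq2 1.42.0, other scalings, no filter, the replicate number as a block, a spline of exon length with 6 degrees of freedom as an offset and each library left out were the alternatives. The fits were also run on simulated counts with known changes and no trend in exon length, so the length trend of these data was not part of that check. With 3 against 3 libraries an exact permutation test cannot go below a two-sided p of 0.1 and was not used. The ISGs and the lists were chosen with earlier results of these data known. All 34 ISGs are named, and pathway genes are named where called or where a role needs them. A few of the listed genes are not reported here. Nothing says how the mice relate beyond genotype, so p-values measure the spread between these samples.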

Additional observations from a re-analysis of the deposited data

How the results depend on the processing

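Of the ISGs called, 3 were higher and 3 lower. DESeq2 called 5 lower, and edgeR with the size factors of DESeq2 changed no call or direction of the 34 genes. Without the filter *Gbp5* was also called. Scaling by library totals gave 1 higher and 6 lower, 31 lower pathway genes and a median of -0.45. In the whole table this scaling called 1137 of 16807 genes higher and 2828 lower. It turned the signs of *Irf7* (-0.087), *Ifit1* (-0.19), *Ifit3* (-0.0085), *Oas1a* (-0.26), *Oasl1* (-0.32), *Mx2* (-0.28), *Gbp2* (-0.13), *Rtp4* (-0.031) and *Xaf1* (-0.13). The gene length offset left 1 ISG higher and 2 pathway genes higher, and it turned *Ifit1* (-0.023), *Ifit3* (-0.023), *Oas1a* (-0.25), *Oas2* (0.069), *Oasl1* (-0.18) and *Gbp2* (-0.017). The deviations of libraries with the same replicate number correlated at 0.126, -0.118 and -0.0893, and those with different numbers between -0.140 and 0.160. With 3 libraries per group, these values cannot tell whether the replicate numbers pair the libraries. With the replicate block 0 ISGs were called higher and 0 lower, as were 0 pathway genes in either direction. In the whole table edgeR then called 24 genes higher and 9 lower. An unadjusted p under 0.05 remained for 10 of the 34 ISGs and for 5806 of 16807 genes tested. The block together with the length offset also left 0 and 0 in both lists, with 59 genes called higher and 22 lower in the whole table. It turned *Ifit1* (-0.15), *Ifit3* (-0.051), *Oas1a* (-0.23), *Oas2* (0.033), *Oasl1* (-0.18) and *Gbp2* (-0.034).

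When single libraries were left out, the ISGs called ranged from 0 to 3 higher and 0 to 5 lower, and the pathway genes from 0 to 8 higher and 0 to 24 lower. The count of 0 came without YT-FF 1 and without YT-FF 2, and the highest pathway counts came without YT-AKO 2. Over all genes tested, 0 were called without YT-FF 1, and 0 higher and 2 lower without YT-FF 2. Without YT-AKO 2, 2925 of 17350 genes were called higher and 2424 lower. Without YT-AKO 1, where 5 ISGs were lower, 2226 of 17514 genes were called higher and 1444 lower. Without YT-FF 3 there were 1 and 9 pathway genes called higher and lower, beside 704 and 528 of all 17458 genes. Without YT-AKO 3 there were 3 and 8, beside 1784 and 895 of all 17467 genes. The median log2 fold change of the ISGs ran from -0.22 to -0.08. Signs turned within these ranges for *Dhx58* (-0.17 to 0.14), *Oas2* (-0.31 to 0.21), *Oas1a* (-0.021 to 0.23), *Oasl1* (-0.17 to 0.20), *Mx2* (-0.095 to 0.15), *Ifit1* (-0.12 to 0.53) and *Xaf1* (-0.11 to 0.44), none of them called. The offset without YT-AKO 2, chosen after seeing the data, turned *Dhx58* (0.076), *Ifit1* (-0.28), *Ifit3* (-0.19), *Oas1a* (-0.22), *Oas2* (0.26), *Oasl1* (-0.16) and *Xaf1* (-0.042). The cause of these changes was not tested. The small number of libraries limits what can be called, and the least abundant ISGs rest on as few as 46 counts in a library.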
